A study of Mus musculus with 12 samples.

Results

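RNA levels of 10 genes for matricellular and adhesive glycoproteins of the extracellular matrix are described here across the genotypes of a Hox mutant series. These genes are a chosen set among the 36186 genes counted in E18.5 mouse kidneys. The 10 genes, grouped by their roles with earlier results of these data known, are Postn (periostin), Tgfbi, Tnc (tenascin C), Tnxb (tenascin XB), Thbs1 and Thbs2 (thrombospondins), Sparc, Spp1 (osteopontin), Fn1 (fibronectin) and Npnt (nephronectin). Whole kidneys at E18.5 gave 12 libraries, 3 of each genotype, from embryos of mixed background. The wild type libraries were replicates 30, 37 and 55. The Hoxa-/- Hoxc+/- libraries (replicates 20, 31 and 33) were homozygous for mutant Hoxa9, Hoxa10 and Hoxa11 and heterozygous for mutant Hoxc9, Hoxc10 and Hoxc11. The Hoxa+/- Hoxc-/- libraries (labelled AhCk_38, AhCk_110 and AhCk_115) had the reverse arrangement, heterozygous for the Hoxa genes and homozygous for the Hoxc genes. The double homozygous mutant libraries (replicates 24, 27 and 29) carry labels that give both gene groups as homozygous mutant. The study's text states that embryos homozygous mutant for all 6 genes had no kidneys and that the sequenced mutants kept wild type copies of Hoxa11, and the labels do not say which library has which. The alleles are germ line frameshift mutations of first exons, so RNA of the mutated genes can persist, and all cell types of the kidney carry them.

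Matricellular proteins are secreted proteins that sit in the extracellular matrix and change how cells attach, move and respond to growth factors, without being part of its load-bearing fibres. Adhesive glycoproteins such as fibronectin and nephronectin hold cells to the matrix through integrins. In the developing kidney nephronectin lies in the basement membrane of the ureteric bud and binds integrin alpha 8 beta 1 on the surrounding mesenchyme, while most matricellular proteins come from stromal cells.

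Counts on genes ranged from 28616878 to 47067926 per library, with a median of 39328507. The Hoxa-/- Hoxc+/- replicate 20 was the shallowest and stood apart from its group, with a median correlation of log2 CPM with its group of 0.945 where every other library had at least 0.966. Levels are given as CPM, counts scaled to a common library total after TMM normalization. The Hoxa+/- Hoxc-/- libraries came from a sequencing run of their own, and 1 run gave all other 9 libraries, so for that genotype run and genotype cannot be told apart. Xist and 4 Y-linked genes marked the 3 wild type libraries as male, and among the mutants Hoxa-/- Hoxc+/- replicates 31 and 33, AhCk_110 and double homozygous replicates 27 and 29 as female. The targeted genes kept their RNA, with Hoxa11 at 44.1 to 59.7 CPM in wild type and 37.2 to 52.8 in the double homozygous mutant, and Hoxc10 at 50.1 to 66.9 against 29.1 to 37.9. In bulk RNA, fewer cells of a type and less RNA per cell cannot be told apart. Nothing in the labels says that replicates came from separate litters, and p-values measure the spread between these libraries.

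The bases upstream of 3 of the 4 genes that passed the test in the double homozygous mutant are shown so that the starts of the genes that rose can be compared. They are the 250 bases before the RefSeq start site nearest to the annotated gene start (GRCm38.p6, the build mm10), read 5′ to 3′ on the gene's strand. The window of Sparc overlaps an exon of the gene and is not printed. Capitals mark matches on either strand to TATAAA, the TATA box, or to TGANTCA, the letters bound by AP-1. TTTATG and TTTACG, which posterior Hox proteins prefer, were searched on both strands too and had no match in these 3 windows. Postn has a further RefSeq start site, at chr3:54359267, whose window holds 1 match to TTTATG, 62 bases before that start, and is not printed. The windows lie at chr3:54360857-54361106 (plus strand) for Postn, chr17:34670285-34670534 (plus strand) for Tnxb and chr17:14694263-14694512 (minus strand) for Thbs2.
Postn: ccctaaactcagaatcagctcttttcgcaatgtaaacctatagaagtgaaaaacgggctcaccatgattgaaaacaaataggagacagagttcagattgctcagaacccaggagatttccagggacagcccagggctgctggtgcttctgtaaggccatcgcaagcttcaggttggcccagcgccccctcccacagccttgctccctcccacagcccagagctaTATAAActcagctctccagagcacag
Tnxb: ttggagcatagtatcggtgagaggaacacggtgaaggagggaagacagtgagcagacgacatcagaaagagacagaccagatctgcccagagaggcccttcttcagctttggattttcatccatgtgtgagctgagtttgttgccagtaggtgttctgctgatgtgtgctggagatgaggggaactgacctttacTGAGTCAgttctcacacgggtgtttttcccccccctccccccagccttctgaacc
Thbs2: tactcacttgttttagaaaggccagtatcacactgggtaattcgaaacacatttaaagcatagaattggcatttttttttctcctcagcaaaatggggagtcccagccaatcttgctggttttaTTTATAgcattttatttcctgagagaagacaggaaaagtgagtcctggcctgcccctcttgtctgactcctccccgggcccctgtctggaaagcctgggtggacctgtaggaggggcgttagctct
The match in Postn begins 26 bases before the start site, that in Thbs2 126 bases before it on the opposite strand, and that in Tnxb 55 bases before it. No 2 matches overlap. Among 32851 windows of this length before RefSeq start sites, TATAAA was in 12.4%, TGANTCA in 6.75%, TTTATG in 10.8% and TTTACG in 2.61%. The 3 windows share no searched motif beyond the TATAAA letters of Postn and Thbs2. TATAAA was also in the windows of Tnc and Spp1, which were not called, beginning 126 and 211 bases before their start sites. The windows of Sparc, Tgfbi and Npnt at the start site nearest to the gene start held none of the searched motifs. RefSeq windows were given for 8 of the 10 genes, and the others are Thbs1 and Fn1.

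In wild type kidneys the 10 genes spanned over 3 orders of magnitude per length. In RPKM, which divides the CPM by the kilobases of annotated exon, Sparc, a collagen-binding calcium-binding glycoprotein, had the highest mean, 316 ± 13.9 (SD, n = 3). Spp1 followed at 133 ± 42.7 RPKM and Npnt at 104 ± 38.6, and the libraries of these 2 genes overlapped. Fn1 (66.5 ± 3.70), Tgfbi (46.0 ± 6.21), Thbs1 (28.9 ± 0.714) and Thbs2 (18.6 ± 2.06 RPKM) came next, with no overlap between neighbours. Tnc (14.4 ± 1.30) and Postn (13.4 ± 0.439) overlapped, and Tnxb was far below the rest at 0.230 ± 0.0176 RPKM. Postn ranked 5 of the 10 genes in the double homozygous mutant, at 52.9 ± 11.6 RPKM, and 9 in wild type. Tnxb was last in all 4 genotypes, at 2.09 ± 0.443 RPKM in the double homozygous mutant. Order between genes depends on the length used. With the longest transcript as length, Postn was at 22.3 RPKM in wild type and ranked 7.

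**Figure D1:**
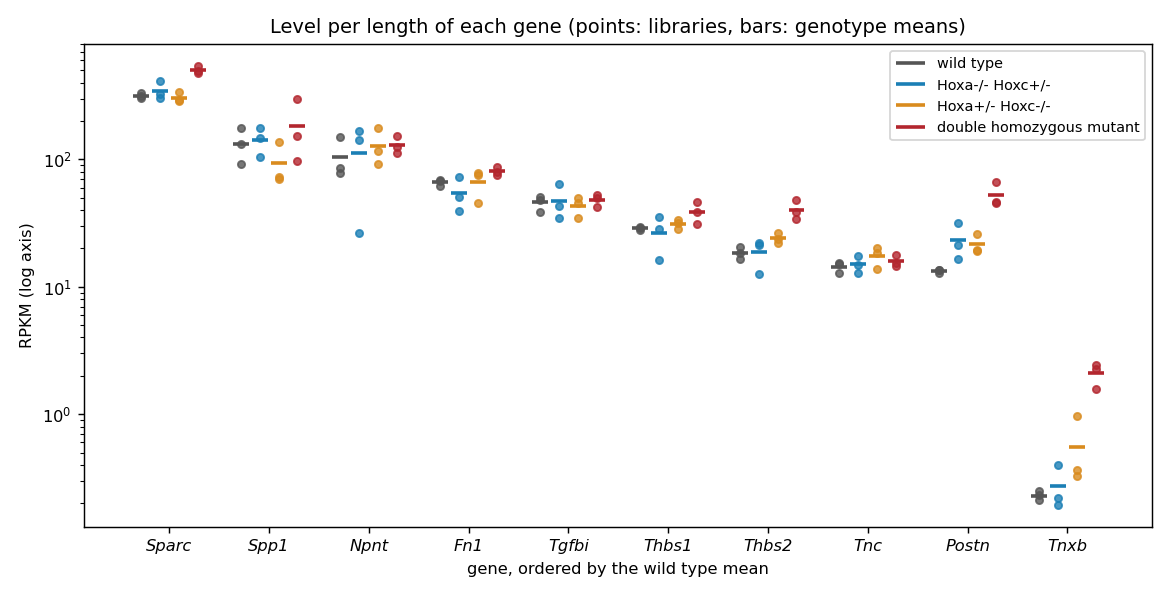
Level per length (RPKM, log axis) of each gene in the 4 genotypes. Points are the 3 libraries of a genotype and bars their mean, with genes ordered by the wild type mean. Sparc is the highest and Tnxb the lowest gene in every genotype, and Postn climbs from 13.4 RPKM in wild type to 52.9 in the double homozygous mutant.

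The first comparison asked how these genes differ when the targeted Hoxa and Hoxc genes are both mutant, apart from the wild type copies of Hoxa11 that the study's text describes. Of the 10 genes, edgeR called 4 higher in the double homozygous mutant than in wild type, DESeq2 called 6 higher, and neither called any lower. DESeq2 called 10.3% of all genes higher. Without adjustment 6 of the 10 had a p below 0.05 by edgeR, all of them higher, as had 15.6% of all genes. Tnxb was 9.07-fold, Postn 3.94-fold, Thbs2 2.17-fold and Sparc 1.60-fold higher. In this comparison 6.31% of 15839 genes tested were called higher and 7.40% lower at an adjusted p of 0.05. The log2 fold changes of all 10 genes were above 0, with a median of 0.43 beside -0.0080 over all genes tested. For 6 of the 10 every mutant library lay above every wild type library, as for 17.4% of all genes tested. Double homozygous replicate 27 was the highest of the 12 libraries for 7 of the 10 genes, and without it edgeR still called the same 4 genes.

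**Figure D2:**
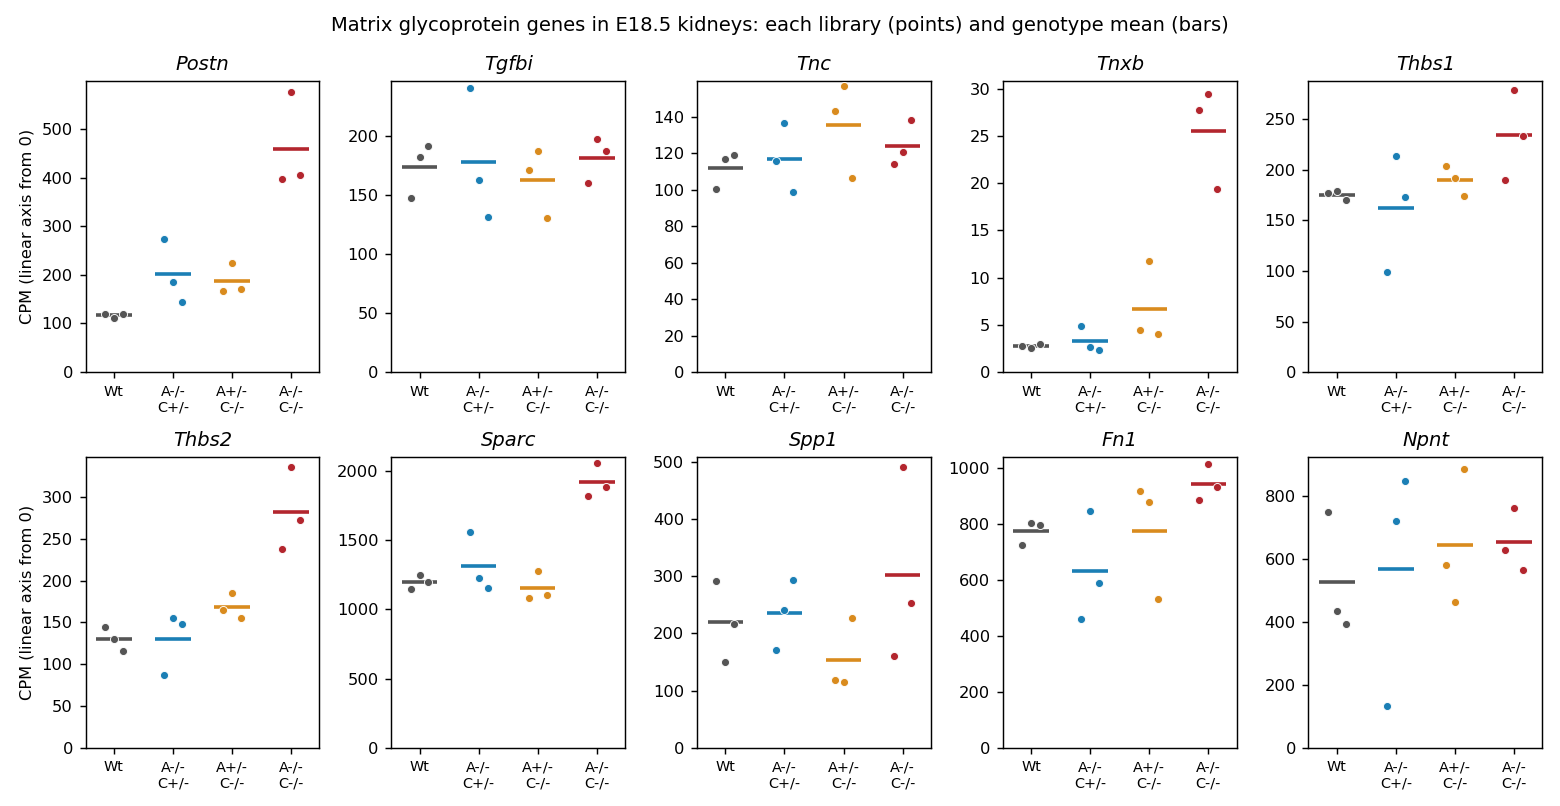
CPM of each gene in each library (points) with the mean of the genotype (bars) on linear axes that start at 0. Wt is wild type, A and C stand for the Hoxa and Hoxc genes and A-/- C-/- is the double homozygous mutant. Postn, Tnxb, Thbs2 and Sparc lie highest in the double homozygous mutant without overlap with any other genotype, while Npnt and Spp1 spread widely within genotypes.

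Periostin and Tgfbi are the fasciclin-domain members, both integrin ligands, and periostin is also known for helping collagen fibres to form. Postn (chr3:54361109-54391037, mm10, plus strand) was at 119, 112 and 119 CPM in wild type replicates 30, 37 and 55. It was at 398, 576 and 405 CPM in double homozygous replicates 24, 27 and 29. All 3 mutant libraries thus lay far above the wild type libraries, which differed little among themselves. The log2 fold change was 1.98 (SE 0.149, quasi-likelihood test of edgeR, Benjamini-Hochberg adjusted over every gene tested, adjusted p = 0.000919). Tgfbi (chr13:56609523-56639562, plus strand) was at 147, 182 and 192 CPM in wild type and 160, 198 and 187 in the mutant. The 2 groups of Tgfbi values overlapped, and the 95% interval of the log2 fold change ran from -0.22 to 0.35. The fasciclin pair thus gave 1 called gene and 1 whose interval includes 0.

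Tenascins are large multimeric glycoproteins, and tenascin XB is known for organising collagen in skin, tendon and other connective tissue. Tnxb (chr17:34670535-34719815, plus strand) was at 2.81, 2.59 and 3.02 CPM in wild type, from 106, 112 and 122 counts. It was at 27.7, 29.5 and 19.4 CPM in the double homozygous mutant, from 1057, 1154 and 705 counts. The lowest mutant library was thus well above the highest wild type library, although the gene stayed the least abundant of the 10 per length. Its log2 fold change was 3.18 (SE 0.185, adjusted p = 0.000410 by edgeR). Its exons share 3 annotated bases with the pseudogene Cyp21a2-ps on the other strand. Tnc (chr4:63959785-64047015, minus strand), the tenascin of embryonic and injured tissue, was at 100, 117 and 119 CPM in wild type and 114, 121 and 138 in the mutant. These overlapped, and the 95% interval of the log2 fold change was -0.085 to 0.38.

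Thrombospondins 1 and 2 are trimeric matricellular proteins that hold back blood vessel growth through CD36 and CD47, and thrombospondin 1 can activate latent TGF-beta. Thbs2 (chr17:14665500-14694235, minus strand) was at 144, 130 and 116 CPM in wild type and 238, 336 and 273 in the double homozygous mutant. The groups did not overlap, and the log2 fold change was 1.12 (SE 0.140, adjusted p = 0.00477 by edgeR). Thbs1 (chr2:118111876-118127133, plus strand) was at 177, 179 and 171 CPM in wild type and 190, 279 and 234 in the mutant. Each mutant library was above each wild type library, but mutant replicate 24 only narrowly. The log2 fold change of Thbs1 was 0.41 (SE 0.132) and missed the threshold (adjusted p = 0.0738 by edgeR). DESeq2 called it (adjusted p = 0.0202), and so did edgeR without mutant replicate 24 (adjusted p = 0.0369).

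Sparc and Spp1 are small secreted glycoproteins, of which Sparc binds collagen and regulates its deposition and Spp1 is an acidic integrin and CD44 ligand made by tubules and macrophages. Sparc (chr11:55394500-55423183, minus strand) was at 1147, 1252 and 1198 CPM in wild type and 1816, 2054 and 1887 in the double homozygous mutant. Its groups were tight and separate, with a log2 fold change of 0.68 (SE 0.0860, adjusted p = 0.00491 by edgeR). Spp1 (chr5:104435118-104441050, plus strand) was at 292, 151 and 217 CPM in wild type and 161, 491 and 253 in the mutant. Mutant replicate 27 alone exceeded all wild type libraries, and the 95% interval of the log2 fold change, -0.46 to 1.37, was the widest of the 10 genes in this comparison. The annotated model Gm42793 shares 309 bases, 18.8% of the exon length, with Spp1 on the same strand, so counts could have been split between them.

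Fibronectin is the ubiquitous adhesive glycoprotein of interstitial matrix and nephronectin that of the ureteric bud basement membrane. Fn1 (chr1:71585520-71653200, minus strand) was at 727, 805 and 798 CPM in wild type and 886, 1013 and 932 in the double homozygous mutant. The groups did not overlap, and the log2 fold change of 0.28 (SE 0.0871) missed the threshold by edgeR (adjusted p = 0.0709) and passed it by DESeq2 (adjusted p = 0.0166). Npnt (chr3:132881745-132950291, minus strand) was at 747, 434 and 393 CPM in wild type and 629, 761 and 565 in the mutant. The high wild type replicate 30 lay within the mutant range, and the log2 fold change was 0.31 (SE 0.241, adjusted p = 0.402 by edgeR). Without wild type replicate 30 Npnt was called higher (adjusted p = 0.0191).

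The male double homozygous library, replicate 24, can be set beside the 3 male wild type libraries directly. It held 398 CPM of Postn against 112 to 119, 27.7 of Tnxb against 2.59 to 3.02, 238 of Thbs2 against 116 to 144 and 1816 of Sparc against 1147 to 1252. With Xist as a covariate in the 6 libraries, where wild type is all male, Postn (adjusted p = 0.0224) and Tnxb (adjusted p = 0.00748) kept their calls. Thbs2 (log2 fold change 0.85, adjusted p = 0.0887) and Sparc (0.58, adjusted p = 0.108) lost them in that fit. In the fit of the 9 libraries of 1 run with the same covariate all 4 were called.

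Markers of other cell types moved in the same comparison, and their part in these differences was not tested. Of 7 kidney stroma markers 3 were called higher, namely Col1a1, Pdgfra and Foxd1, and none lower, and the summed level of the list was 3851 to 4284 CPM in the double homozygous mutant against 1616 to 1800 in wild type. Without Col1a1 the sums were 952 to 1100 CPM against 812 to 971, which overlap. Of the 4 uncalled stromal markers Pdgfrb had a log2 fold change of 0.27, with every mutant library above every wild type library (adjusted p = 0.0961 by edgeR). The log2 fold change was -0.055 for Tcf21, -0.14 for Meis1 and -0.45 for Meis2. Every mutant library of Meis2 lay below every wild type library (adjusted p = 0.0586 by edgeR). Macrophage markers were called higher in 5 of 6, with a sum of 142 to 184 CPM against 73.1 to 82.6. Smooth muscle markers were called higher in 3 of 4 (752 to 869 CPM against 518 to 602) and podocyte markers in 3 of 4 (1206 to 1609 CPM against 946 to 997). Endothelial markers summed to 646 to 700 CPM against 551 to 596, with none of 4 called by edgeR and 3 of 4 higher at an unadjusted p below 0.05. Cap mesenchyme markers were called lower in 3 of 6 (62.2 to 165 CPM against 186 to 275). Of 5 ureteric bud and collecting duct markers Ret (log2 fold change -1.77) and Wnt11 (-1.07) were called lower and Krt8 lay above wild type in all 3 mutant libraries without being called (0.29, adjusted p = 0.0703 by edgeR), and the summed levels overlapped (585 to 730 CPM against 698 to 770). Of the tissues beside the kidney, 5 skeletal muscle markers summed to 5.46 to 11.0 CPM in the mutant against 3.39 to 7.03 in wild type, with Myh3 called higher (adjusted p = 0.0194 by edgeR). The 3 Schwann cell markers summed to 3.16 to 5.16 CPM against 2.49 to 2.54, with Sox10 called higher (adjusted p = 0.0263 by edgeR). Of 6 liver markers Alb (10.5-fold) and Ttr (2.95-fold) were called higher, while the sums of the list overlapped (71.3 to 146 CPM against 48.6 to 91.1). Of 5 cartilage and tendon markers none was called higher and Scx was lower, and the tendon marker Tnmd, which had no count in 2 of 3 wild type libraries, was too low to be tested.

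Receptors through which these proteins act were tested as a list of 15 genes, all of them expressed enough to be tested. Of the 15, 5 were called higher by edgeR in the double homozygous mutant and none lower (1 with a negative log2 fold change had an unadjusted p below 0.05), beside 6.31% and 7.40% of all genes, and the median log2 fold change was 0.32. Stab1, a scavenger receptor of macrophages and endothelium that takes up SPARC, was at 67.1, 58.4 and 52.1 CPM in wild type and 109, 123 and 122 in the mutant (log2 fold change 0.99, SE 0.105, adjusted p = 0.00276 by edgeR). Of the 10 integrin subunits in the list 3 were called higher. Itgb3 rose from 5.13 ± 1.23 to 10.5 ± 1.10 CPM (adjusted p = 0.0172), Itgav from 207 ± 15.1 to 279 ± 34.6 (adjusted p = 0.0402) and Itgb5 from 173 ± 5.80 to 214 ± 9.76 (adjusted p = 0.0291), all means ± SD of 3 libraries tested by edgeR. Itga5 and Itgb1, which together form the classical fibronectin receptor, had log2 fold changes of 0.022 and 0.089 and were not called. Cd44, the hyaluronan and osteopontin receptor, rose from 18.4 ± 3.96 to 30.5 ± 5.07 CPM (adjusted p = 0.0354 by edgeR). Of these 5 calls that of Stab1 held with each of the 6 libraries left out, whereas Cd44 kept its call in 1, Itgav and Itgb5 in 2 and Itgb3 in 3 of the 6 reduced fits. Itga8, the nephronectin receptor of the mesenchyme, was at 188, 227 and 221 CPM in wild type and 146, 146 and 195 in the mutant. Its groups overlapped, and its log2 fold change was -0.39 (SE 0.134, adjusted p = 0.0914 by edgeR). Itga8 was called lower in 2 of 16 alternatives, by DESeq2 and without double homozygous replicate 29 (adjusted p = 0.0274).

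Other glycoproteins of the same families formed a list of 21, of which 20 were tested and Tnr was too low. Comp, the cartilage thrombospondin, was at 0.212 to 0.272 CPM in wild type, from 8 to 11 counts, and 1.07 to 1.58 in the double homozygous mutant. It passed the filter on low counts only through the mutant, so its difference is given as a description. Of the other 19, 4 were called higher and 1 lower by edgeR in the double homozygous mutant, beside 6.31% and 7.40% of all genes. Thbs3 rose from 9.01 ± 1.37 to 17.6 ± 2.01 CPM (n = 3 each, adjusted p = 0.00871 by edgeR). Smoc2, a relative of Sparc, was at 62.4, 63.5 and 73.1 CPM in wild type and 157, 188 and 146 in the mutant (log2 fold change 1.30, SE 0.112, adjusted p = 0.00145 by edgeR). Among the CCN matricellular proteins Ccn3 (log2 fold change 0.84) and Ccn4 (0.33) rose, with adjusted p-values of 0.0302 and 0.0449 by edgeR. The call of Ccn3 held in 1 and that of Ccn4 in 2 of the 6 fits with a library left out. Tnn, tenascin N, was the gene that fell, from 5.02 ± 1.14 to 1.80 ± 0.118 CPM (n = 3 each, log2 fold change -1.48, adjusted p = 0.00704 by edgeR). Its call held in 12 of 16 alternatives, in which its log2 fold change ran from -1.58 to -0.67 with adjusted p-values up to 0.381. Tnxb was thus called in the opposite direction to Tnn, whereas Tnc values overlapped.

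**Figure D3:**
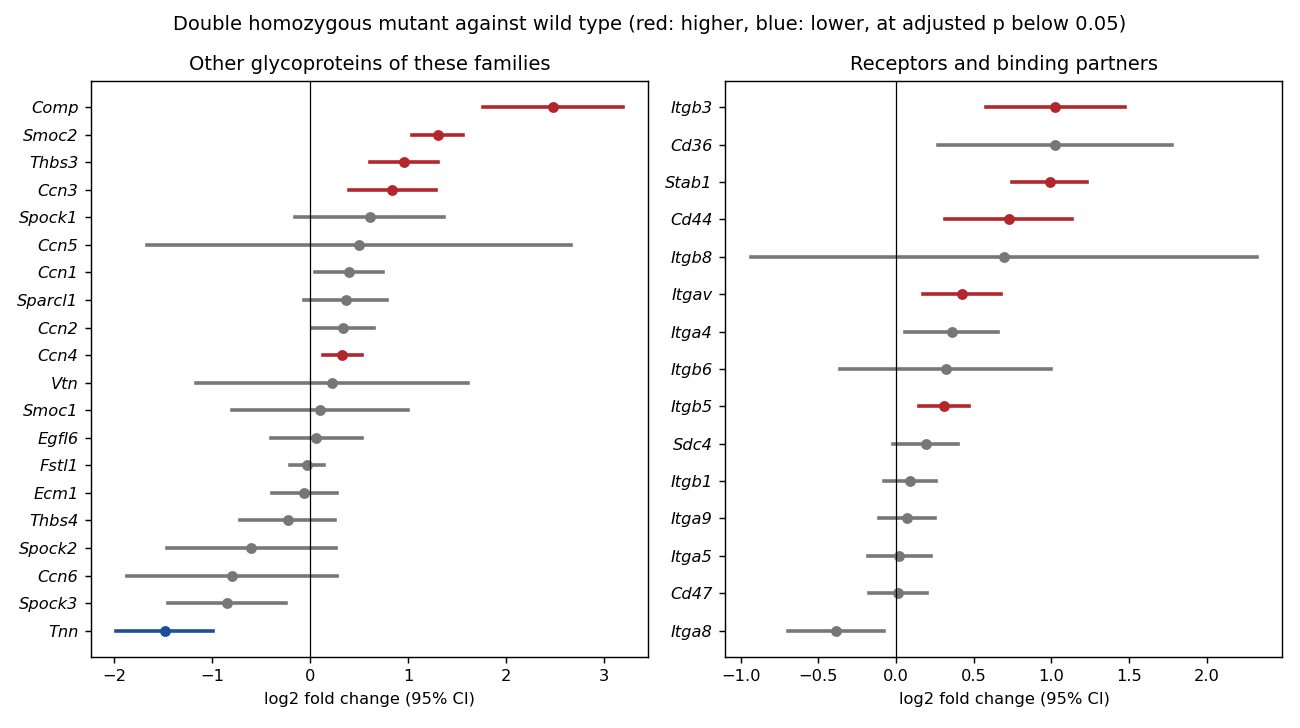
Log2 fold changes with 95% intervals in the double homozygous mutant against wild type for 20 other glycoproteins of these families (left) and 15 receptors (right). Red marks genes called higher and blue the gene called lower at an adjusted p of 0.05. Comp, which passed the filter on low counts only through the mutant, and Smoc2 lie highest among the glycoproteins and Tnn lowest, while Itga8 is the lowest of the receptors and is not called by edgeR with all 6 libraries.

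The heterozygous and homozygous combinations ask whether mutation of 1 gene group, with 1 mutant copy of the other, changes the same genes. All 3 mutants were compared with the same wild type libraries. In Hoxa-/- Hoxc+/- kidneys none of the 10 genes was called by edgeR or DESeq2, 1 of the 10 was higher at an unadjusted p below 0.05 as were 0.817% of all genes, and 0% of 15789 genes were called higher and 0% lower by edgeR, beside 360 genes with an unadjusted p below 0.05 and 18 called by DESeq2. Postn was at 274, 185 and 144 CPM in replicates 20, 31 and 33, each above the wild type range of 112 to 119 (log2 fold change 0.79, SE 0.237, adjusted p = 1.00 by edgeR). It was the only 1 of the 10 genes whose groups did not overlap with higher values, as for 3.50% of all genes. Tnxb was at 4.86, 2.69 and 2.37 CPM and overlapped wild type. Replicate 20 was the lowest of the 12 libraries for Npnt, Fn1, Thbs1 and Thbs2 and the highest for Tgfbi. Npnt was at 134 CPM in replicate 20 against 720 and 846 in replicates 31 and 33, and Fn1 at 461 against 846 and 590. Thbs1 was at 98.5, 214 and 173 CPM and Thbs2 at 87.6, 155 and 148, so that replicates 31 and 33 of both genes lay at or above the wild type level. Sparc, at 1560, 1229 and 1151 CPM, and Tgfbi, at 241, 163 and 131, showed the reverse, with replicate 20 the highest. Tnc was at 116, 137 and 99.0 CPM and Spp1 at 171, 242 and 294, and both overlapped wild type. With this spread the 95% intervals of the log2 fold changes were wide, from -0.54 to 0.56 for Thbs2, -0.25 to 0.52 for Sparc and -1.44 to 1.67 for Npnt. Markers differed in the same library, where 4 podocyte markers summed to 466 CPM against 1024 and 1091 in replicates 33 and 31, and 5 proximal tubule markers to 375 against 2684 and 2094. Other lists were higher in replicate 20 than in replicates 31 and 33, with cap mesenchyme markers at 419 CPM against 202 and 182, smooth muscle markers at 786 against 485 and 519, and cartilage and tendon markers at 189 against 95.4 and 82.8. Kidney stroma markers were highest there too, at 2653 CPM against 2199 and 1681, and at 1239 against 906 and 868 without Col1a1. Against wild type, the liver markers Alb (14.6-fold, with overlapping groups) and Ttr (3.81-fold) and the macrophage marker Mrc1 (1.27-fold) were higher at an unadjusted p below 0.05. Apoa1 was higher at that p too, from 0.132 to 0.324 CPM in wild type. No marker was called by edgeR, and the part of all these markers in the values was not tested. Without replicate 20 the log2 fold change of Postn was 0.50 (adjusted p = 0.431 by edgeR), and those of Tgfbi, Tnxb, Thbs1 and Sparc changed sign. With Xist as a covariate, a fit in which replicate 20 is the male of its group, edgeR called 3 of the 10 genes higher and 4 lower, beside 16.0% and 14.2% of all genes.

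In Hoxa+/- Hoxc-/- kidneys Postn was called higher. In this comparison 0.836% of 15902 genes were called higher and 1.53% lower, and of the 10 genes 1 was called higher and none lower by edgeR. Postn was at 170, 166 and 225 CPM in AhCk_38, AhCk_110 and AhCk_115, all above wild type, and its log2 fold change was 0.69 (SE 0.121, adjusted p = 0.0376 by edgeR). The call was lost without wild type replicate 30 (adjusted p = 0.0528), 37 (0.197) or 55 (0.150) or AhCk_110 (0.0911), and with all 12 libraries in 1 edgeR fit (0.257), while the log2 fold change stayed between 0.67 and 0.77 in these 5 fits. Groups did not overlap, with higher values, for Postn, Tnxb and Thbs2, 3 of the 10 genes beside 11.4% of all genes. Tnxb was at 3.99, 4.44 and 11.7 CPM, of which AhCk_115 stood well above the others, with a log2 fold change of 1.27 (SE 0.412, adjusted p = 0.145 by edgeR and 0.0179 by DESeq2). Thbs2 was at 155, 165 and 186 CPM (log2 fold change 0.39, SE 0.107, adjusted p = 0.109 by edgeR and 0.0251 by DESeq2). DESeq2 thus called 3 of the 10 genes higher, beside 3.39% of all genes. Sparc, at 1107, 1081 and 1275 CPM, overlapped wild type, with a 95% interval of the log2 fold change from -0.25 to 0.16. The remaining genes overlapped wild type as well. Thbs1, at 174, 204 and 192 CPM, had a 95% interval from -0.061 to 0.31, and Tnc, at 106, 143 and 157 CPM, from -0.055 to 0.63. Tgfbi was at 131, 171 and 187 CPM and Fn1 at 532, 917 and 879. Spp1 and Npnt were each highest in AhCk_38, Spp1 at 226, 119 and 116 CPM and Npnt at 886, 581 and 463. The log2 fold change of Spp1, -0.51 with an interval from -1.25 to 0.24, was the lowest of the 10 in this comparison. Of the related glycoproteins Smoc2 was called higher (66.4 ± 5.90 to 103 ± 12.2 CPM, n = 3 each, adjusted p = 0.0313 by edgeR) and Spock3 lower, and none of the 15 receptors was called. Without adjustment 2 of the 15 were higher at a p below 0.05, beside 9.88% of all genes. Of the cell type lists, stromal markers summed to 1913 to 2952 CPM, above wild type, and none of the 7 was called by edgeR, with 3 higher at an unadjusted p below 0.05. Without Col1a1 the stromal sums, 872 to 1026 CPM against 812 to 971, overlapped. Ureteric bud and collecting duct markers summed to 520 to 663 CPM, below the 698 to 770 of wild type, and Ret was called lower (log2 fold change -0.52, adjusted p = 0.0435 by edgeR). Podocyte markers (1014 to 1185 CPM against 946 to 997) and macrophage markers (84.6 to 103 CPM against 73.1 to 82.6) also lay above wild type, with no marker called by edgeR and 3 and 2 of them higher at an unadjusted p below 0.05. Of the 6 cap mesenchyme markers 3 were lower at an unadjusted p below 0.05, Cited1 without overlap, and of the 6 liver markers Alb was 13.1-fold higher. Apoa1 was at 0.132 to 0.324 CPM in wild type and 0.471 to 2.39 in Hoxa+/- Hoxc-/-. It passed the filter on low counts only through the mutant, so its difference is given as a description. Of the 4 skeletal muscle markers tested Myh3 was 5.18-fold higher (adjusted p = 0.0656 by edgeR), and the other 3 had negative log2 fold changes. None of these was called by edgeR, and the part of all these markers in the values above was not tested.

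**Figure D4:**
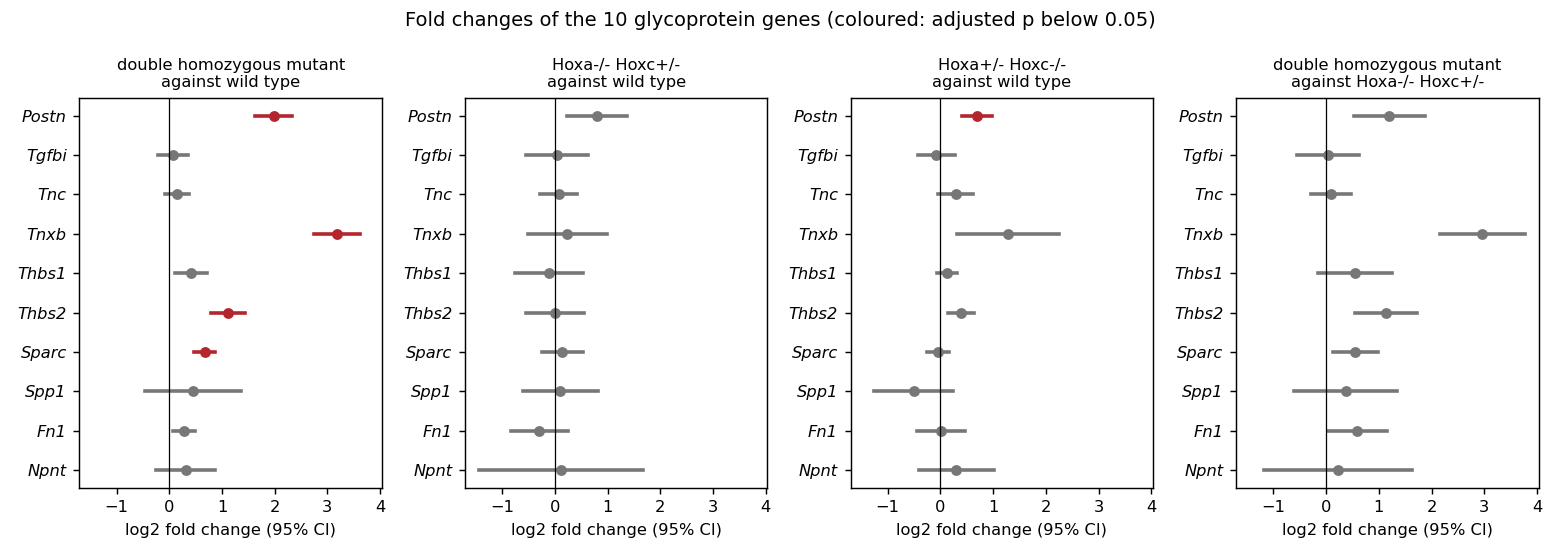
Log2 fold changes of the 10 genes with 95% intervals in the 4 comparisons. Coloured genes have an adjusted p below 0.05. Postn lies above 0 in all 4 comparisons, the first 3 of which share the wild type libraries, and the intervals of Tgfbi and Tnc include 0 in each.

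The double homozygous mutant was also compared directly with Hoxa-/- Hoxc+/-, which tests the difference between these genotypes without wild type. By the study's text the sequenced mutants kept wild type copies of Hoxa11. The 2 groups may thus differ at Hoxa11 as well as at the Hoxc genes. None of the 10 genes was called by edgeR, 5 had an unadjusted p below 0.05, all of them higher, and DESeq2 called 3, Postn, Tnxb and Thbs2. Over all genes 5.89% were higher at an unadjusted p below 0.05, and DESeq2 called 1.70% higher. Of 15764 genes 0% were called higher and 0% lower by edgeR, beside 1787 with an unadjusted p below 0.05 and 487 called by DESeq2. The log2 fold changes of all 10 genes were above 0, with a median of 0.55. In 5 of the 10 the double homozygous libraries all lay above, beside 10.1% of all genes, namely Postn, Tnxb, Thbs2, Sparc and Fn1. Cell type markers moved in this comparison too, and their part in the values was not tested. Macrophage markers summed to 142 to 184 CPM against 82.2 to 87.1 in Hoxa-/- Hoxc+/-, with 5 of 6 higher at an unadjusted p below 0.05, and stromal markers to 3851 to 4284 against 1681 to 2653, with Col1a1 and Pdgfra higher. Without Col1a1 the stromal sums overlapped, at 952 to 1100 CPM against 868 to 1239. Of the 7 stromal markers 4 had negative log2 fold changes, namely Foxd1 (-0.13), Meis1 (-0.27), Meis2 (-0.57) and Tcf21 (-0.17). Cap mesenchyme markers summed to 62.2 to 165 CPM against 182 to 419, with 4 of 6 lower at an unadjusted p below 0.05. Podocyte markers (1206 to 1609 CPM against 466 to 1091) and endothelial markers (646 to 700 against 420 to 586) summed higher without overlap. At the same unadjusted p Ret, Wnt11, Sox9 and Scx were lower, and Krt8, Tagln, Acta1 and Mylpf were higher. No marker of any list was called by edgeR. Tnxb was 7.81-fold higher (log2 fold change 2.97, SE 0.338, adjusted p = 0.0884 by edgeR), Postn 2.30-fold (1.20, SE 0.282, adjusted p = 0.243) and Thbs2 2.19-fold (1.13, SE 0.245, adjusted p = 0.218). Without the Hoxa-/- Hoxc+/- replicate 20, edgeR called 4 of the 10 genes higher, Postn (log2 fold change 1.50, adjusted p = 0.0195), Tnxb (3.35, 0.00414), Thbs2 (0.92, 0.0282) and Sparc (0.71, 0.0195), beside 2.43% of all genes. The 95% intervals of the fit with all 6 libraries were 2.16 to 3.77 for Tnxb, 0.53 to 1.87 for Postn and 0.13 to 0.98 for Sparc. Fn1, at 886, 1013 and 932 CPM against 461, 846 and 590, had a log2 fold change of 0.59 with an interval from 0.037 to 1.15. For the other 5 genes the intervals included 0, and they ran from -0.54 to 0.62 for Tgfbi, -0.28 to 0.48 for Tnc, -0.15 to 1.24 for Thbs1, -0.61 to 1.35 for Spp1 and -1.18 to 1.63 for Npnt. Of the 20 related glycoproteins tested and the 15 receptors none was called by edgeR in this comparison. Without adjustment 7 of the receptors had a p below 0.05, 6 of them with a positive log2 fold change. Of the related glycoproteins other than Comp 6 had a p below 0.05, 5 of them with a positive log2 fold change.

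Npnt spread widely within genotypes, and its order among the libraries followed a list of 5 proximal tubule markers (Lrp2, Cubn, Slc34a1, Hnf4a and Slc5a2). In all 4 genotypes the 3 libraries had the same order by Npnt as by the summed CPM of the list. In wild type the pairs of list sum and Npnt were 923 and 393 CPM in replicate 55, 1184 and 434 in replicate 37, and 2399 and 747 in replicate 30. In Hoxa-/- Hoxc+/- replicate 20 the list summed to 375 CPM and Npnt was at 134, where replicate 33 held 2684 and 846. In Hoxa+/- Hoxc-/- kidneys the list summed to 1279, 1689 and 2488 CPM where Npnt was at 463, 581 and 886. The 3 double homozygous libraries held 1847, 2318 and 2621 CPM of the list and 565, 629 and 761 of Npnt. Spp1 had the same order as the list in 2 of the 4 genotypes only. The markers were looked at with the values of Npnt known, and the relation was not tested.

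**Figure D5:**
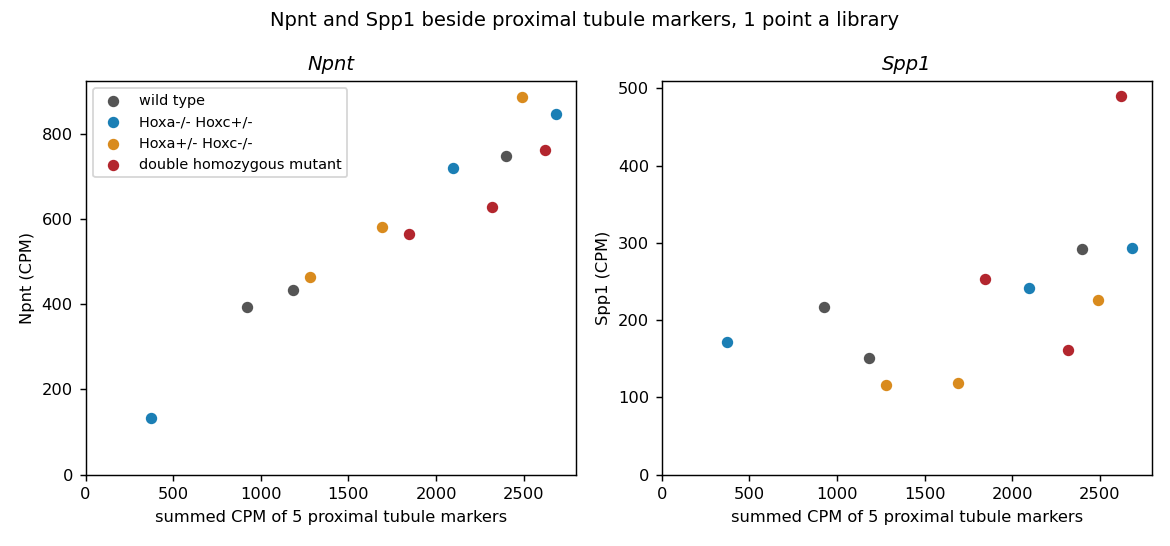
Npnt (left) and Spp1 (right) in CPM against the summed CPM of 5 proximal tubule markers, 1 point a library coloured by genotype, on linear axes from 0. Npnt lies highest where the markers are highest within each of the 4 genotypes, from 134 CPM at a marker sum of 375 to 846 at 2684 in Hoxa-/- Hoxc+/-.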

How the data were processed

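Libraries were made from total RNA of whole kidneys and sequenced as 75-base pairs. The authors aligned reads to mm10 and removed reads aligning to several places, and the deposited raw values are expected counts per gene, which are not whole numbers. A second deposited table holds normalized log2 values centred on each gene's median. Whether counting used strand, and the aligner, are not given in the sources used here.

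For each comparison the expected counts, rounded, entered edgeR 4.0.16 (R 4.3.3; TMM factors, filterByExpr with a minimum count of 10 and a total of 15, quasi-likelihood test, only the 6 libraries compared, threshold 0.05 on Benjamini-Hochberg adjusted p-values over all genes). CPM used TMM factors over 12 libraries. Exon lengths and positions came from GENCODE M21, matched for 32072 of 36186 genes. DESeq2 1.42.0, limma 3.58.1 (mean-variance trend on log2 CPM) and other settings served as alternatives. The test was checked on simulated data for the double homozygous comparison: over 15681 genes it recovered 84 of 100 genes changed 2-fold and 99 of 100 changed 4-fold, and 7.58% of its calls were false. The changed genes were drawn only from genes above a minimum mean count, so the recovery does not cover lower genes. The simulated libraries held no outlying library and no difference of sex.

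The 10 genes, the lists and the markers were chosen with earlier results of these data known. Named were all 10 genes, of the related glycoproteins and receptors up to 6 each with the largest called change in the double homozygous mutant, Itga8, and the 3 genes most alike each of the 10. Every other gene named, markers, receptors and targeted genes included, was named after its values were seen.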

Additional observations from a re-analysis of the deposited data

How the results depend on the processing

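The calls of Postn and Tnxb in the double homozygous mutant held in each of 16 alternatives, and those of Thbs2 and Sparc in 15, the exception being Xist as a covariate, where the number of the 10 genes called higher fell from 4 to 2. Over all genes, the number called in either direction fell from 2171 to 74 with that covariate. That covariate rests on the 1 male library of the mutant, and in Hoxa-/- Hoxc+/- against wild type it moved the calls from 0 higher and 0 lower to 3 higher and 4 lower. There the number of all genes called went from 0 to 4777. In Hoxa+/- Hoxc-/- against wild type the count of 1 became 3 by DESeq2, 0 with all 12 libraries in the fit and 0 with Xist as a covariate, and 0 to 1 with a library left out. Over all genes the number called went from 376 to 1280, 149 and 61 in the first 3 of these settings. It was 60 to 549 with a library left out. In the double homozygous mutant against Hoxa-/- Hoxc+/- the count of 0 became 3 by DESeq2, 3 with all 12 libraries in the fit, 2 with Xist as a covariate, 1 in the fit of the 9 libraries of 1 run, 5 in that fit with Xist, and 0 to 4 with a library left out. Over all genes the number called went from 0 to 487, 540, 25, 181 and 701 in the first 5 of these settings. It was 0 to 687 with a library left out. The cause was not tested. With the longest transcript as length, wild type levels were 22.3 RPKM for Postn, 57.8 for Tgfbi, 15.8 for Tnc, 30.01 for Thbs1, 22.04 for Thbs2, 521 for Sparc and 93.4 for Fn1.

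Genes not called with the settings of the report changed sign as follows, in log2 fold change. Of these, Thbs2 (adjusted p = 0.0284) and Npnt (adjusted p = 0.0173) in Hoxa-/- Hoxc+/- with Xist as a covariate were called lower by edgeR in the reversed direction, and no other was called. For the double homozygous mutant against wild type Tgfbi was -0.0076 with the GC content and exon length correction and -0.13 with Xist as a covariate, Spp1 was -0.47 with Xist, and in the fit of 9 libraries with Xist Thbs1 was -0.027, Spp1 -0.14 and Npnt -0.40. In Hoxa-/- Hoxc+/- against wild type Tgfbi was -0.053, Tnc -0.0094 and Thbs2 -0.058 by library size only, Thbs2 -0.49, Spp1 -0.28 and Npnt -1.76 with Xist, Thbs2 -0.032 and Npnt -0.21 by limma on the deposited log2 values, and Thbs2 -0.43, Spp1 -0.48 and Npnt -1.09 in the fit of 9 libraries with Xist. In Hoxa+/- Hoxc-/- against wild type Fn1 was -0.0014 with all 12 libraries, -0.19 with the GC content and exon length correction, -0.14 with Xist and -0.027 by limma. For the double homozygous mutant against Hoxa-/- Hoxc+/- Tgfbi was -0.071 with the GC content and exon length correction.

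With a library left out, the values that changed sign spanned these ranges. For the double homozygous mutant against wild type Spp1 ran from -0.088 to 0.76 and Tgfbi from -0.038 to 0.15. In Hoxa-/- Hoxc+/- against wild type Tgfbi ran from -0.24 to 0.23, Tnc from -0.052 to 0.18, Sparc from -0.015 to 0.22, Tnxb from -0.15 to 0.43, Thbs1 from -0.36 to 0.14, Npnt from -0.30 to 0.57, Thbs2 from -0.13 to 0.22 and Spp1 from -0.11 to 0.36. In Hoxa+/- Hoxc-/- against wild type Npnt ran from -0.0084 to 0.64, Fn1 from -0.13 to 0.21 and Tgfbi from -0.20 to 0.043. For the double homozygous mutant against Hoxa-/- Hoxc+/- Npnt ran from -0.24 to 0.62, Spp1 from -0.17 to 0.68, Tgfbi from -0.16 to 0.33 and Tnc from -0.022 to 0.22. The count of the 10 genes called higher in the double homozygous mutant was 4 to 5 in these fits, while the number of all genes called ran from 535 to 3386. No paired analysis was possible because the replicate numbers are not shared between genotypes. The lowest count of any of the 10 genes in a library was 90 (Tnxb), and the effect of depth on the calls was not tested.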

Other observations

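Over the 9 libraries of 1 sequencing run, the genes whose log2 CPM was most like that of each of the 10 differed in kind. These are descriptions over libraries that share a run and a genotype structure, with no test. Those most like Postn were Matn2, Bgn and Col8a2, a matrilin, a small proteoglycan and a collagen (Pearson r of 0.993, 0.986 and 0.985). Tnxb was most like Fbln2, Gsn and Vat1 (0.992, 0.986 and 0.984), Sparc most like Pcolce, Thra and Cd248 (0.997, 0.993 and 0.992), and Thbs2 most like Lox, Abca1 and Stab1 (0.986, 0.985 and 0.984). Fn1 was most like Cspg4, Ror2 and Mmp14 (0.978, 0.961 and 0.956), Tgfbi most like Cnp, Casp8 and Ecm1 (0.965, 0.963 and 0.954), and Tnc most like Unc5c, Gli2 and Mansc1 (0.901, 0.891 and 0.862). Thbs1 was most like Acaa1a, Sgsh and Kdm4b (0.984, 0.978 and 0.978), Spp1 most like Degs2, Ero1lb and Tln2 (0.973, 0.938 and 0.915), and Npnt most like Trpc1, Lmbrd2 and Asah2 (0.999, 0.998 and 0.998). Among the 10 genes themselves Postn and Sparc (0.966), Tnxb and Sparc (0.959), Postn and Tnxb (0.933) and Thbs1 and Fn1 (0.912) were the closest pairs. Without Hoxa-/- Hoxc+/- replicate 20, a choice made after seeing the data, Postn and Thbs2 reached 0.979 over 8 libraries, while Thbs1 and Fn1 came to 0.768. In that setting the first gene for Postn (Matn2, 0.998), Sparc (Pcolce, 0.997), Spp1 (Degs2, 0.987) and Fn1 (Cspg4, 0.969) was the same, while none of the 3 genes for Thbs2 was.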
